A study of Homo sapiens with 4 samples.

Results

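Cholesterol and fatty acid synthesis was followed through a list of 36 genes in human NB4 leukaemia cells depleted of the adaptor protein LDB1. The list was matched by gene symbol to the 28412 genes of the expression table, and it holds 18 enzymes of the sterol branch, 7 enzymes of the fatty acid branch, 7 regulators and 4 transport genes. Of these, 35 had values, and the sterol desaturase SC5D was not analysed here. The 33 members with a mean of at least 1 FPKM (fragments per kilobase of exon at a fixed sequencing depth, so that levels can be compared between genes) were tested, and the efflux pumps ABCA1 and ABCG1 lay under that limit.

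To investigate the effect of LDB1 in acute myeloid leukaemia, the study compared NB4 cells expressing a short hairpin RNA against LDB1 (sh-LDB1) with cells given a control construct (sh-NC), both delivered by pLKO.1 lentivirus, in 2 RNA-seq libraries per group. The labels call the sh-NC cells untreated controls, whereas the study's methods describe a control vector. Which of the study's hairpins against LDB1 was sequenced is not given in the sources used here, and nothing says that the libraries came from separate cultures, so the p-values measure only the spread between these libraries. In such bulk samples, fewer cells of a kind and less RNA per cell cannot be told apart.

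Cholesterol is built from acetyl-CoA through mevalonate, the isoprenoid diphosphates, squalene and lanosterol, while fatty acids are built from the same acetyl-CoA by carboxylation, chain assembly, elongation and desaturation. Both branches are switched on by the SREBP transcription factors, which leave the endoplasmic reticulum with their escort SCAP when sterols are low and are held back by the INSIG proteins when sterols are high. The LXR receptors act in the opposite sense on sterols, switching on efflux and the degradation of the LDL receptor, and they also raise fatty acid synthesis.

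Promoter sequences were read from RefSeq windows (GRCh38.p14) that run from 250 bases before to 50 bases after a start site, and 30 of the 35 members with values matched 39 windows. There was no entry for ACAT2, FDFT1, SQLE, FASN and ABCG1. Both strands were searched for 5 motifs, and a match is only a description of the letters. Repeated windows were dropped for the members but not from the set of all windows. Shares of member windows and of all windows were therefore not counted in quite the same way. The sterol regulatory element TCACNCCAC, the SREBP site, was found in 1 of the 39 windows, that of SREBF2, and in 1.13% of all 35116 windows. The NF-Y box CCAAT, a site that often accompanies SREBP sites, was found in 23 member windows (59.0%) and in 34.6% of all windows. The GATA box AGATAA, the kind of site at which LDB1 complexes with GATA factors gather, was in the windows of FDPS and CYP51A1 (5.13% of member windows and 10.3% of all). The E-box CACGTG was in the windows of ABCA1, INSIG1, LSS and SCAP (10.3% of member windows and 7.26% of all), and the LXR element, AGGTCA repeated after 4 bases, was in none of the member windows and in 0.0199% of all. The 5 stretches shown here were chosen because they hold these letters in members that moved in opposite directions. They lie before the RefSeq start site, and the capitals mark the matches on either strand. They are the regulators SREBF2 (chr22:41832947-41833028, plus strand, a sterol regulatory element and an NF-Y box) and INSIG1 (chr7:155297683-155297853, plus strand, an NF-Y box and an E-box), the enzymes FDPS (chr1:155308665-155308844, plus strand, 3 NF-Y boxes and a GATA box) and CYP51A1 (chr7:92134630-92134685, minus strand, a GATA box), and the desaturase SCD (chr10:100346983-100347076, plus strand, 2 NF-Y boxes). By GENCODE positions INSIG1, FDPS and CYP51A1 begin farther upstream, so part or all of their stretches lies inside the gene.
SREBF2: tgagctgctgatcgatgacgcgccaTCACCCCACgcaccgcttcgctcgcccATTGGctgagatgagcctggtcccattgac
INSIG1: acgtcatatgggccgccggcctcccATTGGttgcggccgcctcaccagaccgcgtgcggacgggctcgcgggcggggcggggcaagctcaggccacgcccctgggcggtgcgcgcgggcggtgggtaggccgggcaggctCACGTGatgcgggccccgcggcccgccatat
FDPS: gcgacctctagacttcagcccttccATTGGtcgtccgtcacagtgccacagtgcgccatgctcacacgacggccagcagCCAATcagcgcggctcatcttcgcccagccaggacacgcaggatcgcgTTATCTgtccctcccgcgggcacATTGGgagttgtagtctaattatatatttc
CYP51A1: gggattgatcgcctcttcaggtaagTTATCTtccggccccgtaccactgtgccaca
SCD: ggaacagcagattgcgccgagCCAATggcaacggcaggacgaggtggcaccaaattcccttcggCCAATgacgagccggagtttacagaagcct

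The knockdown was checked first. LDB1 was at 135 and 120 FPKM with sh-NC against 10.2 and 9.47 FPKM with sh-LDB1. The sh-LDB1 mean was 7.73% of the sh-NC mean, a log2 fold change of -3.56 (SE 0.0765, adjusted p = 6.93e-05), and each library matched its label in this gene. The libraries held between 14500049 and 16790642 reads recovered from the FPKM values, and log2 levels correlated at 0.985 and 0.984 within the groups and at 0.856 to 0.863 between them. NB4 is a promyelocytic line, but the marker levels went against that label. Of 10 listed promyelocytic genes 8 had values, and MPO and CTSG were not among these 8. In the sh-NC libraries the promyelocytic genes with values summed to 23.1 and 22.3 FPKM, the highest being SPI1 (10.5 and 10.7) and LYZ (5.85 and 5.61). The neutrophil elastase gene ELANE was listed at 0 there, whereas 14 erythroid genes such as the globin HBZ summed to 4187.5 and 4369.9 FPKM. After LDB1 knockdown the erythroid sum was 391 and 354 FPKM with 13 of 13 tested genes lower. All 8 of 8 cell cycle genes were lower (627 and 656 FPKM against 199 and 202), beside 37.4% of all genes tested. Of the promyelocytic genes, 5 of 7 tested were higher (23.1 and 22.3 FPKM against 75.7 and 73.1), beside 29.9% of all genes. The largest parts of that sum were SPI1 (34.3 and 35.3 FPKM with sh-LDB1) and LYZ (19.3 and 19.1). CEBPE and CD33 did not pass (log2 fold change -0.58 and 0.32), and ELANE was at 0.182 and 0 FPKM with sh-LDB1. Of the macrophage markers, CD14, CD68 and CSF1R had values, none above 0.35 FPKM, and of the T and B cell markers CD3D rose from 23.2 and 20.1 to 42.2 and 45.2 FPKM. The part of these shifts in the members' changes was not tested.

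Results showed that the members did not move as a block. Of the 33 tested, 14 rose and 16 fell in the sh-LDB1 cells at an adjusted p below 0.05, and 3 did not pass (IDI1, SQLE and MSMO1). Over all 13300 genes tested, 29.9% rose and 37.4% fell, so calls were common everywhere. The median log2 fold change was -0.12 over the members and -0.08 over all genes. With a fold threshold of 2 added, INSIG2 and NR1H2 rose and FASN fell, where 9.5% of all genes rose and 10.3% fell. In 31 of the 33 members both sh-LDB1 libraries lay on the same side of both sh-NC libraries, which was also true of 84.6% of all genes. When libraries were instead set to an equal sum of FPKM, the median of all genes shifted by 0.15 on the log2 scale, and the members split into 16 higher and 12 lower, with all genes moving from 3983 higher and 4978 lower to 4876 and 4047.

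**Figure D1:**
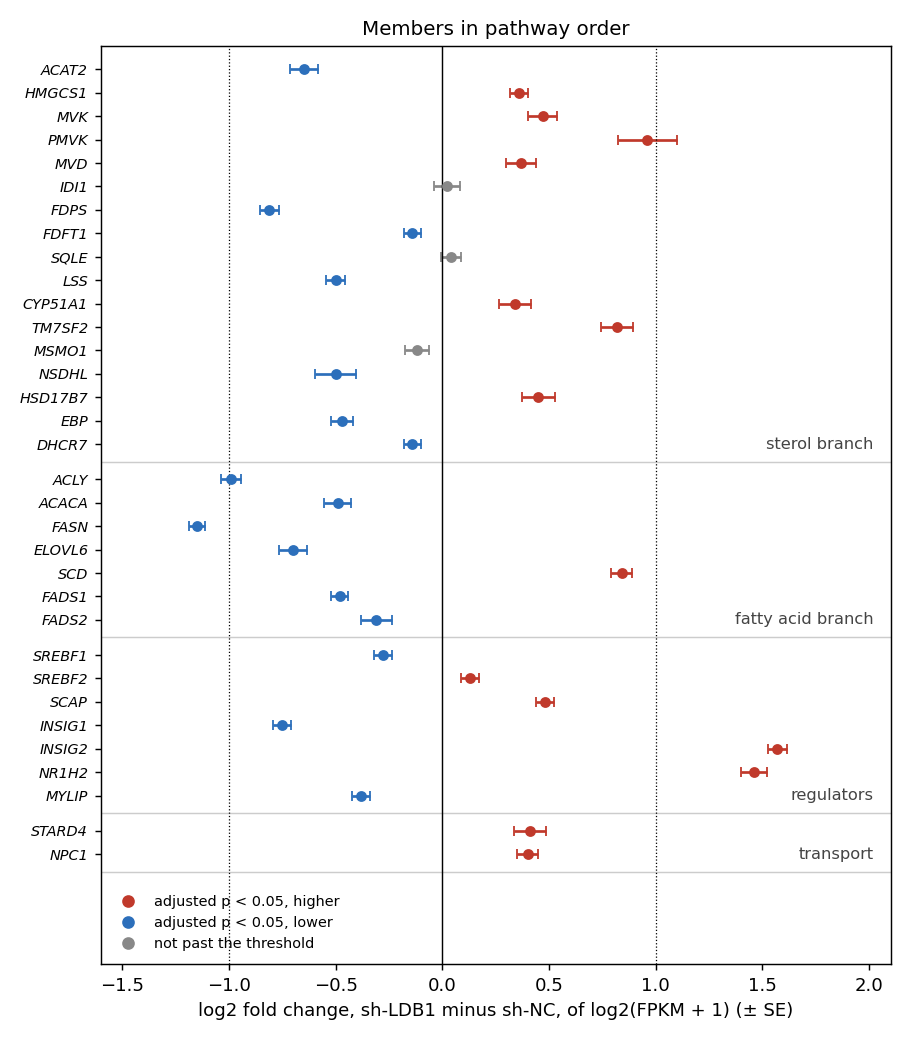
Log2 fold change of log2(FPKM + 1), sh-LDB1 minus sh-NC, for the 33 tested members in pathway order; points are estimates from 2 libraries per group, bars are the standard error, colour marks the call at an adjusted p below 0.05, and dotted lines mark a fold change of 2. HMGCS1, MVK, PMVK and MVD lie to the right and ACAT2 before them to the left, the fatty acid enzymes other than SCD lie to the left, and INSIG2 (1.57) and NR1H2 (1.46) lie farthest right.

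In the sterol branch, 7 of 17 tested enzymes rose, 7 fell and 3 did not pass, with a median log2 fold change of 0.02. The shares over all genes tested were 29.9% higher and 37.4% lower, with a median of -0.08. The HMG-CoA synthase and the enzymes that phosphorylate and decarboxylate mevalonate rose while the thiolase before them fell, the enzymes of the farnesyl and squalene steps fell or did not pass, and the later steps from lanosterol to cholesterol were mixed. None reached a fold change of 2 on the log2(FPKM + 1) scale. With equal sums of FPKM the counts were 9 higher and 5 lower, where all genes moved to 4876 higher and 4047 lower.

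The branch opens with ACAT2, the thiolase that joins acetyl-CoA units in the cytosol. ACAT2 was at 22.2 and 24.3 FPKM with sh-NC against 14.0 and 14.9 FPKM with sh-LDB1, and it fell by 0.65 on the log2 scale (SE 0.0653, adjusted p = 0.00124). Its annotated exons share 454 of 2639 bases with TCP1 on the other strand, a gene at 105 to 128 FPKM, and whether the counting used strand is not given in the sources used here. The next step ran the other way. HMGCS1, the cytosolic HMG-CoA synthase, was at 18.6 and 18.8 FPKM with sh-NC against 24.5 and 24.0 FPKM with sh-LDB1 (log2 fold change 0.36, SE 0.0427, adjusted p = 0.00208).

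The kinases and the decarboxylase that follow mevalonate were higher in each sh-LDB1 library than in either control. The mevalonate kinase MVK was at 7.88 and 7.10 FPKM with sh-NC against 10.9 and 10.6 FPKM with sh-LDB1 (log2 fold change 0.47, adjusted p = 0.00363). PMVK, the phosphomevalonate kinase on chromosome 1 (154924740 to 154936719), showed the largest rise of the branch, from 14.5 and 10.9 FPKM to 26.3 and 24.6 FPKM. Its log2 fold change was 0.96 (SE 0.139, adjusted p = 0.00386), while its control libraries lay farther apart than those of most members. The decarboxylase MVD stood at 33.8 and 29.8 FPKM with sh-NC against 41.4 FPKM in both knockdown libraries (log2 fold change 0.37, adjusted p = 0.00919), a call that was lost without sh-LDB1 replicate 1 (adjusted p = 0.0548) or 2 (0.0555).

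The isomerase IDI1, which makes the other isoprenoid building block, gave 27.7 and 29.7 FPKM with sh-NC against 30.2 and 28.1 FPKM with sh-LDB1. These ranges overlapped, and the log2 fold change was 0.02 (SE 0.0608, adjusted p = 0.795). FDPS, the farnesyl diphosphate synthase whose promoter stretch is shown above, fell the most of the branch. It was at 35.6 and 36.3 FPKM with sh-NC against 19.7 and 20.5 FPKM with sh-LDB1 (chromosome 1, 155308748 to 155320666), a sh-LDB1 mean of 56.0% of control (log2 fold change -0.81, SE 0.0446, adjusted p = 0.000245). Reads of FDPS may be shared with the 8 annotated pseudogenes named after it, so its level is less certain. FDPS also shares 18.6% of its exonic bases with RUSC1-AS1 on the other strand, a gene at 4.03 to 6.65 FPKM. For IDI1, 3 annotated pseudogenes are named after it.

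FDFT1, the squalene synthase, changed little, from 78.3 and 76.7 FPKM to 70.8 and 70.0 FPKM (log2 fold change -0.14, adjusted p = 0.0322), and with equal sums of FPKM its value turned to 0.03. The FDFT1 call was also lost without sh-NC replicate 1 (adjusted p = 0.0565) and without sh-LDB1 replicate 1 (0.14) or 2 (0.176). SQLE, the squalene epoxidase, was among the most abundant enzymes of the branch at 107 and 114 FPKM with sh-NC against 113 and 115 FPKM with sh-LDB1. The SQLE ranges overlapped (log2 fold change 0.04, SE 0.0479, adjusted p = 0.478), although with equal sums of FPKM SQLE and IDI1 passed as higher (0.21 and 0.19). LSS closes the sterol rings to lanosterol. It fell from 24.5 and 23.6 FPKM to 16.6 and 16.7 FPKM, or by 0.50 on the log2 scale (SE 0.0457, adjusted p = 0.000918).

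After lanosterol, members moved both ways. The demethylase CYP51A1, whose window also holds a GATA box, was at 3.43 and 3.12 FPKM with sh-NC against 4.44 and 4.35 FPKM with sh-LDB1 (log2 fold change 0.34, adjusted p = 0.0151), resting on 165 to 255 reads per library. TM7SF2, a sterol reductase, rose from 8.0 and 8.4 FPKM to 16.2 and 14.3 FPKM (log2 fold change 0.82, SE 0.0757, adjusted p = 0.000954). HSD17B7, the keto reductase of the demethylation steps, rose from 3.94 and 4.30 FPKM to 5.72 and 6.31 FPKM (log2 fold change 0.45, adjusted p = 0.00689). These 3 stood at low to moderate levels in the control cells, as the plot of levels shows. The CYP51A1 call was lost without sh-NC replicate 2 (adjusted p = 0.0618) and without sh-LDB1 replicate 1 (0.089) or 2 (0.0773), and that of HSD17B7 without sh-LDB1 replicate 2 (0.051). Both genes have annotated pseudogenes (3 for CYP51A1 and 2 for HSD17B7), and 68.2% of the exonic bases of CYP51A1 are shared with an unnamed coding locus on the same strand.

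The abundant late enzymes did not share that direction. MSMO1, the methyl sterol oxidase, was at 44.3 and 46.3 FPKM with sh-NC against 43.1 and 39.9 FPKM with sh-LDB1, a difference that did not pass (log2 fold change -0.12, adjusted p = 0.119, and 0.05 with equal sums of FPKM). NSDHL, the dehydrogenase that works with MSMO1, fell from 30.1 and 24.9 FPKM to 19.0 and 18.9 FPKM (log2 fold change -0.50, SE 0.0971, adjusted p = 0.00968). The isomerase EBP fell from 42.0 and 40.8 FPKM to 28.5 and 30.6 FPKM (log2 fold change -0.47, adjusted p = 0.0017). Of the exonic bases of EBP, 36.4% are shared with an unnamed coding locus on the same strand. DHCR7, the reductase of the last step, went from 62.7 and 64.0 FPKM to 57.3 and 57.2 FPKM (log2 fold change -0.14, adjusted p = 0.0267), and turned to 0.03 with equal sums of FPKM. Without sh-LDB1 replicate 1 or 2, NSDHL (adjusted p = 0.0531 and 0.0553) and DHCR7 (0.135 and 0.143) did not pass.

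**Figure D2:**
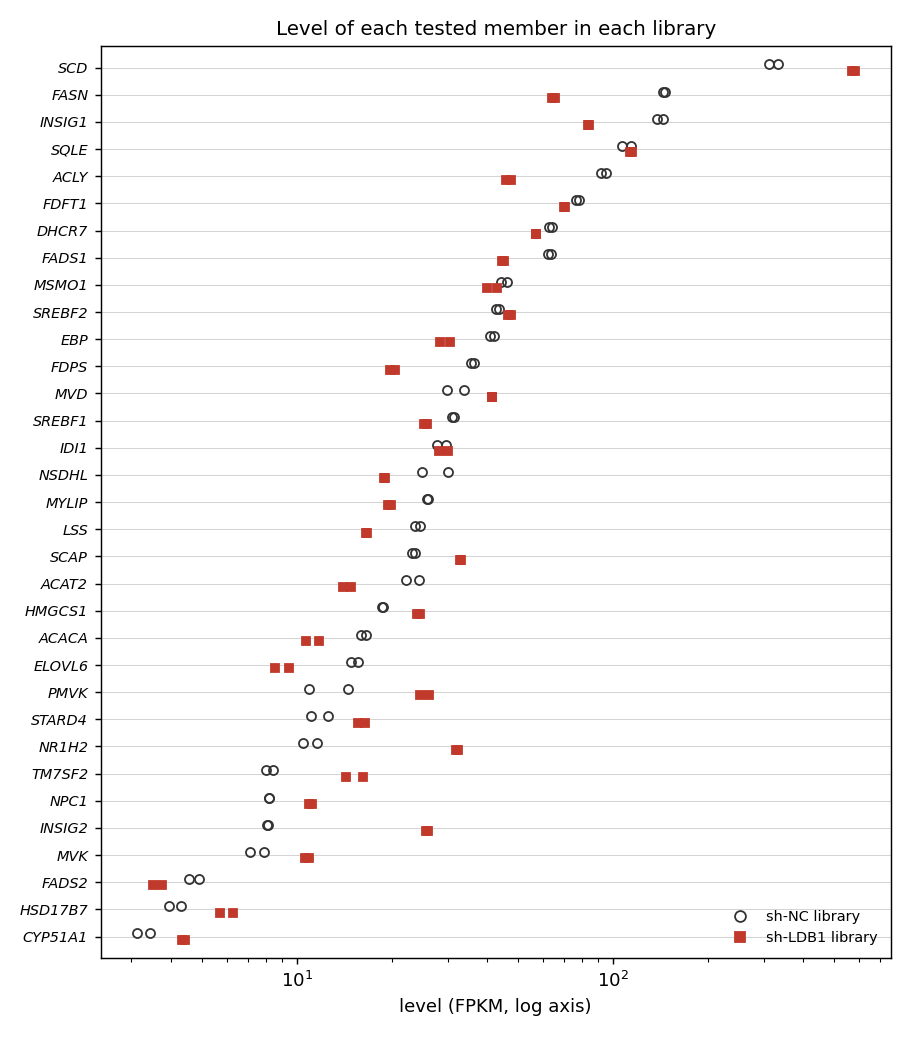
Level in FPKM, on a log axis, of each tested member in each of the 4 libraries, ordered by the sh-NC mean; open circles are sh-NC libraries and squares are sh-LDB1 libraries. SCD is the most abundant member in both groups, FASN and INSIG1 lie far left of their controls, and IDI1 and SQLE are the members whose groups overlap.

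In the fatty acid branch, 6 of 7 enzymes fell and 1 rose, with a median log2 fold change of -0.49. Over all genes tested, 37.4% fell and 29.9% rose, with a median of -0.08. With equal sums of FPKM, 5 fell and 1 rose, where all genes moved to 4047 lower and 4876 higher. The enzymes that supply acetyl-CoA, carboxylate it, assemble palmitate and elongate it all fell, while the desaturase SCD rose.

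ACLY, which splits citrate to supply cytosolic acetyl-CoA to both branches, was at 95.4 and 91.7 FPKM with sh-NC against 47.5 and 45.8 FPKM with sh-LDB1. Its mean in sh-LDB1 cells was 49.8% of control, and the log2 fold change of -0.99 (SE 0.0452, adjusted p = 0.000165) lay just inside the fold threshold on this scale. ACACA, the acetyl-CoA carboxylase that commits carbon to fatty acids, fell from 16.0 and 16.6 FPKM to 11.8 and 10.7 FPKM (log2 fold change -0.49, adjusted p = 0.00258). FASN, the synthase that assembles palmitate (chromosome 17, 82078338 to 82098294), was at 144 and 146 FPKM with sh-NC against 64.3 and 65.5 FPKM with sh-LDB1. It was the only member that fell past the fold threshold, to 44.8% of control (log2 fold change -1.15, SE 0.038, adjusted p = 0.000106), on 9277 to 21834 reads per library. With equal sums of FPKM, FASN stayed lower with a log2 fold change of -0.98.

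The chain-modifying enzymes divided. ELOVL6, which elongates palmitate, fell from 14.9 and 15.6 FPKM to 9.48 and 8.55 FPKM (log2 fold change -0.70, SE 0.0675, adjusted p = 0.00111). SCD, the desaturase that makes oleate and palmitoleate, was the most abundant member at 313 and 332 FPKM with sh-NC and reached 582 and 573 FPKM with sh-LDB1 (chromosome 10, 100347233 to 100364826). Its sh-LDB1 mean was 179% of control (log2 fold change 0.84, SE 0.0497, adjusted p = 0.000287), with 26234 to 50021 reads per library. SCD has 1 annotated pseudogene named after it, with which reads may be shared. The desaturases of polyunsaturated fatty acids did not follow SCD. FADS1 fell from 62.2 and 63.6 FPKM to 45.4 and 44.5 FPKM (log2 fold change -0.48, adjusted p = 0.000719). FADS2 went from 4.55 and 4.91 FPKM to 3.74 and 3.51 FPKM (log2 fold change -0.31, adjusted p = 0.0191), a call that did not pass with equal sums of FPKM (-0.17), without sh-NC replicate 2 (adjusted p = 0.0857) or without sh-LDB1 replicate 1 (0.0671) or 2 (0.108). FADS1 and FADS2 share 490 exonic bases on opposite strands, so the level of FADS2 is uncertain beside its far more abundant neighbour.

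The summed level of the branch followed SCD, its most abundant gene. The 7 fatty acid genes summed to 650 and 670 FPKM with sh-NC against 764 and 752 FPKM with sh-LDB1, although 6 of them fell. The sterol enzymes summed to 565 and 563 FPKM with sh-NC against 542 and 537 FPKM with sh-LDB1, but as a share of all FPKM they were lower with sh-NC (0.177% and 0.176%) than with sh-LDB1 (0.190% and 0.191%).

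Among the 7 regulators, 4 rose and 3 fell, with a median log2 fold change of 0.13. Of all genes tested, 29.9% rose and 37.4% fell, with a median of -0.08. SREBF1, which encodes the SREBP form that favours fatty acid genes, fell from 31.0 and 31.5 FPKM to 25.2 and 25.9 FPKM (log2 fold change -0.28, SE 0.0424, adjusted p = 0.00442). That call did not pass with equal sums of FPKM (-0.11). SREBF2, which encodes the form that favours sterol genes, was at 43.6 and 42.6 FPKM with sh-NC against 46.6 and 47.7 FPKM with sh-LDB1 (log2 fold change 0.13, adjusted p = 0.0489), and the call was lost when any 1 library was left out (adjusted p = 0.0523 to 0.228). The escort SCAP rose more clearly, from 23.2 and 23.7 FPKM to 33.1 and 32.8 FPKM (log2 fold change 0.48, SE 0.0412, adjusted p = 0.0008).

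The INSIG genes, whose products anchor SCAP in the endoplasmic reticulum, moved apart. INSIG1, itself a target of SREBPs, was at 138 and 144 FPKM with sh-NC against 84.0 and 83.6 FPKM with sh-LDB1, 59.4% of control (log2 fold change -0.75, SE 0.0416, adjusted p = 0.000251). INSIG2 (chromosome 2, 118088452 to 118110997) was at 8.04 and 8.12 FPKM with sh-NC against 26.1 and 25.7 FPKM with sh-LDB1. This was the largest change of any member, 320.0% of control (log2 fold change 1.57, SE 0.0447, adjusted p = 8.31e-05), on 473 to 1652 reads per library, and the windows of INSIG2 held none of the 5 motifs.

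NR1H2, which encodes the receptor LXR beta (chromosome 19, 50329653 to 50383388), rose from 11.6 and 10.5 FPKM to 32.3 and 31.9 FPKM. Its sh-LDB1 mean was 290.0% of control (log2 fold change 1.46, SE 0.0625, adjusted p = 0.000152). Its exons share 1182 of 5341 bases with NAPSA on the other strand, and NAPSA was at 0.966 to 1.15 FPKM in the 4 libraries. MYLIP, a target of LXR whose product marks the LDL receptor for degradation, fell from 26.1 and 25.8 FPKM to 19.9 and 19.4 FPKM (log2 fold change -0.38, adjusted p = 0.00165).

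The transport genes were few and mostly weak. STARD4, a carrier of sterol between membranes, rose from 11.1 and 12.6 FPKM to 15.6 and 16.4 FPKM (log2 fold change 0.41, adjusted p = 0.00831, and 0.0573 without sh-LDB1 replicate 2). NPC1, which exports cholesterol from lysosomes, rose from 8.15 and 8.18 FPKM to 10.9 and 11.2 FPKM (log2 fold change 0.40, adjusted p = 0.00242). The efflux pumps ABCA1 and ABCG1, which are classical targets of LXR, were near the limit of detection in every library. ABCA1 had 2 and 3 reads with sh-NC against 6 and 2 reads with sh-LDB1, and ABCG1 was listed at 0 in both sh-NC libraries and had 4 and 3 reads in sh-LDB1 cells. A count of 0 allows up to 3 reads in a library, so no difference in either pump was detectable at this depth.

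Ratios within a library do not depend on how the libraries were scaled, and 3 pairs, chosen after their values were seen, are given as a description. SCD was at 2.17 and 2.28 times the FPKM of FASN with sh-NC, against 9.05 and 8.76 times with sh-LDB1. INSIG1 was at 17.2 and 17.7 times the FPKM of INSIG2 with sh-NC, against 3.22 and 3.26 times with sh-LDB1. The ratio of SREBF1 to SREBF2 was 0.709 and 0.740 with sh-NC against 0.541 and 0.543 with sh-LDB1. In each pair the groups lay apart by more than the spread between their libraries, and with 2 libraries against 2 the smallest two-sided p that an exact permutation test can give is 0.333.

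**Figure D3:**
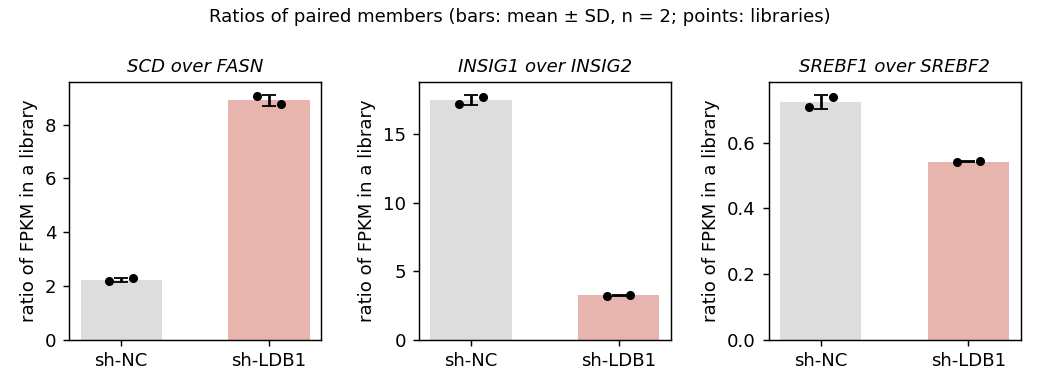
Ratio of the FPKM of paired members within each library, for SCD over FASN, INSIG1 over INSIG2 and SREBF1 over SREBF2; bars are the mean and SD of 2 libraries, points are libraries, and each axis starts at 0. The mean SCD to FASN ratio is 2.22 with sh-NC and 8.91 with sh-LDB1, and the mean INSIG1 to INSIG2 ratio is 17.5 and 3.24.

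Neighbouring parts of the pathway were read from 4 further lists, which were drawn up for the function of their genes. Their counts stand beside 29.9% higher and 37.4% lower over all genes tested. Of 17 tested isoprenoid and sterol ester genes, 6 rose and 8 fell (median log2 fold change -0.20). DHDDS and NUS1, the subunits of the enzyme that makes dolichol chains from farnesyl diphosphate, rose by 1.66 and 0.89 on the log2 scale. DHDDS was at 2.78 and 2.84 FPKM with sh-NC against 11.8 and 10.4 FPKM with sh-LDB1. PDSS1, which makes the side chain of ubiquinone, went the other way, from 12.3 and 12.8 FPKM to 2.97 and 2.64 FPKM (log2 fold change -1.83). FAXDC2, a fatty acid hydroxylase domain protein, fell by 1.51 on the log2 scale.

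Of 19 genes of SREBP processing and sterol sensing, 7 rose and 8 fell (median 0.00). UBE2G2, a ubiquitin-conjugating enzyme of degradation at the endoplasmic reticulum, fell from 31.2 and 31.6 FPKM to 17.4 and 18.4 FPKM (log2 fold change -0.78). TMEM97, the sigma receptor that binds NPC1, fell by 0.82 on the log2 scale. FAF2, another factor of degradation at the endoplasmic reticulum, rose by 0.81.

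Of 20 other fatty acid genes, 7 rose and 7 fell (median -0.08). SLC25A1, which exports the citrate that ACLY uses, fell from 204 FPKM in both sh-NC libraries to 120 and 126 FPKM (log2 fold change -0.73), the same direction as ACLY. MID1IP1, an activator of acetyl-CoA carboxylase, rose by 0.82, ELOVL1, the elongase of very long chains, fell by 0.99, and AGPAT2, an acyltransferase of glycerolipid synthesis, rose from 14.2 and 12.2 FPKM to 38.2 and 39.5 FPKM (log2 fold change 1.49).

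Of 18 sterol uptake and transport genes, 8 rose and 6 fell (median 0.08). With equal sums of FPKM 9 rose and 4 fell, where all genes moved to 4876 higher and 4047 lower. In the other lists, in the order above, that scaling gave 7 higher and 7 lower, 7 and 7, and 7 and 6. NPC2, the lysosomal partner of NPC1, rose from 6.56 and 6.59 FPKM to 16.3 and 16.6 FPKM (log2 fold change 1.20). OSBP, the oxysterol-binding carrier, rose from 24.4 and 23.3 FPKM to 49.4 and 50.6 FPKM (log2 fold change 1.04). PLTP, the phospholipid transfer protein and a known LXR target, rose by 1.44, and STARD3, a late endosomal sterol carrier, rose by 0.63. The medians of the 4 lists ran from -0.20 to 0.08, beside -0.08 for all genes. The genes named here from these lists had adjusted p from 0.000123 to 0.000579, with standard errors of 0.0433 to 0.0815 on the log2 scale.

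**Figure D4:**
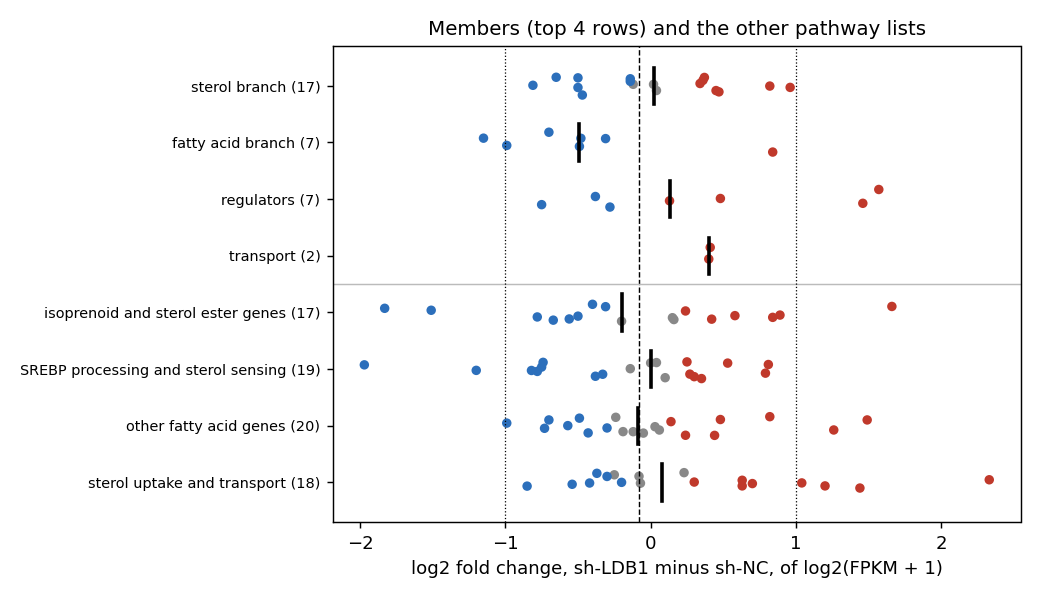
Log2 fold change of log2(FPKM + 1), sh-LDB1 minus sh-NC, of every tested gene of the member groups (top 4 rows) and of the 4 further lists, with the number of genes in brackets; points are genes coloured by call (red higher, blue lower, grey not past), black bars are list medians, the dashed line is the median of all genes (-0.08), and dotted lines mark a fold change of 2. The fatty acid branch has the lowest median (-0.49), with SCD (0.84) alone on the right.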

How the data were processed

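RNA was measured in 2 sh-NC and 2 sh-LDB1 libraries of NB4 cells, grouped by their titles. The deposited table holds FPKM values per gene, which the authors computed after filtering the reads and mapping them with HISAT2 (version 2.0.5 to hg38, per the submitters' processing notes). The counting tool, the annotation and the strand setting are not given in the sources used here. Members and lists were chosen with earlier results of these data known.

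Genes whose mean over the 4 libraries reached 1 FPKM were fitted on log2(FPKM + 1), a pseudocount of 1, with limma 3.58.1 (eBayes with a trend) in R 4.3.3, and p-values were adjusted by Benjamini-Hochberg over all 13300 of them. This scale understates the fold changes of low genes. Calls needed an adjusted p below 0.05, and in the stricter count a fold change above 2 or below 0.5. DESeq2, which the authors used, needs counts and was not run. The genes named are the members, LDB1, the markers and, of each further list, the 4 with the smallest adjusted p among those whose mean reached 5 FPKM. 1 gene that this rule names is not reported here. SPRING1 was matched by its gene ID.

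Whole reads were recovered from the FPKM values, within a tolerance of 0.01 reads, for 99.55% of genes with an annotated length. Each length was fitted so that the reads became whole, guided by the exon length of GENCODE release 44. Of the fitted lengths, 83.5% lay within 10% of the annotated one, so the reads given for a gene depend on its fitted length. The recovered totals of 14500049 to 16790642 reads per library set the precision, and intervals of counting error do not cover differences between cultures. The recovery was tested on simulated data, where all reads of 98.5% of 2000 genes came back exactly. Those data were made at the fitted lengths, so the test cannot show that these lengths are right. The fit was tested on simulated data as well, with far fewer changed genes than were called here. Positions are from GENCODE (GRCh38) and promoter windows from RefSeq, read with Python 3.11.15. In all, 15 alternatives were run, namely other pseudocounts, filters, scalings and models and each library left out. No column of the table was left without a sample.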

Additional observations from a re-analysis of the deposited data

How the results depend on the processing

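LDB1 kept its direction and its call in every alternative run, with log2 fold changes from -3.69 to -3.40. Members that fell past the fold threshold numbered 1, and 2 with a pseudocount of 0.1 or 0.01 and with limma voom on recovered reads (FASN and ACLY), but 0 with libraries set to equal summed FPKM and 0 with limma treat, which tests the fold of 2 itself (FASN adjusted p = 0.0788). Members that rose past it numbered 2, 3 with either smaller pseudocount, the median of ratios, equal recovered reads and voom (PMVK added to INSIG2 and NR1H2), and 4 with equal summed FPKM (SCD added as well). With 1 library left out at a time, between 1 and 2 members fell past the fold, between 2 and 3 rose past it, 9 to 13 rose at an adjusted p below 0.05 and 12 to 15 fell. The lowest count of 9 came without sh-LDB1 replicate 2, where MVD, CYP51A1, HSD17B7, SREBF2 and STARD4 lost their calls. The LDB1 values ranged from -3.65 to -3.48 in these fits. The lone library of a group was there assumed to vary like the other group. Calls at an adjusted p below 0.05 were also fewer over all genes tested, in both directions, in each of these fits than in the main fit. Signs turned with equal summed FPKM for FDFT1 (0.03), MSMO1 (0.05) and DHCR7 (0.03), for IDI1 without sh-NC replicate 1 or sh-LDB1 replicate 1 (-0.03 each, with a range of -0.03 to 0.07 over the left-out libraries), and for SQLE without sh-NC replicate 1 (-0.00, with a range of -0.00 to 0.09). The causes were not tested.

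The replicate numbers are shared between the groups, but deviations of same-numbered libraries correlated at only 0.0196. That value shows no large deviation in common, and it cannot show whether same-numbered libraries were prepared together. A replicate block left 13 members higher and 14 lower, and 2 higher and 1 lower past the fold, with FDFT1, DHCR7 and SREBF2 losing their calls (LDB1 -3.56). Over all genes that block gave 3890 higher and 4808 lower, against 3983 and 4978 without it. Leaving aside limma treat, 416 of 460 member values under the alternatives kept their direction and their side of an adjusted p of 0.05. At this depth ABCA1 and ABCG1 could not be tested.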
